A study of Ginkgo biloba with 15 samples.

Results

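The gene models described here are those of the Ginkgo biloba annotation whose genomic span, from first to last base, was 100 kb or more. A span was taken as end minus start plus 1 in the deposited mRNA table, with no use of expression values. Of 41840 annotated models (identifiers beginning with Gb_) among 43690 models in all, 3809 met this rule. They are called long models below. They were compared with the 20648 annotated models of 1 to 10 kb, called short models. Embryos of this gymnosperm tree, grown under natural conditions, gave 6 mRNA libraries, 2 from September and 2 from November of 2015 and 2 from February of 2016. Nothing in the labels tells whether the pair of libraries from a month came from separate trees or seeds, so p-values reflect differences among these libraries alone and may cover technical spread only. The table names no gene products, so the embryo label could not be checked against marker genes.

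A gene's span includes its introns, which are copied into the primary transcript and removed by splicing, while the mature mRNA holds the exons alone. In gymnosperms with large genomes, introns are often enlarged by inserted transposable elements, so that a gene with an ordinary mRNA can occupy a very long stretch of a chromosome. A longer span also means that RNA polymerase takes longer to finish 1 transcript.

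The long models took up 853.2 Mb, 76.0% of the summed span of all annotated models, although they were 9.10% of them in number. Their median span was 192.7 kb (quartiles 139.2 and 281.0 kb), and the longest spanned 1389.1 kb. By contrast, their median listed length, the length by which the authors scaled expression, was 1593 bases (quartiles 1080 and 2409). The short models had a median span of 2.15 kb and a median listed length of 1230 bases. Listed bases therefore made up a median of 0.771% of the span in long models and 58.7% in short ones. No long model was free of introns, whereas the listed length equalled the span in 3612 short models. Long models lay on 2665 scaffolds, 1859 of which held a single one, and the fullest scaffold held 8. Plus and minus strands carried 1851 and 1958 of them.

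Expression was given as FPKM, fragments counted on a gene per kilobase of listed length, scaled to the library's total. Levels below are per listed length, a small part of the span in long models and most of it in short ones. Whether reads from introns were counted was not stated, so how far the 2 classes can be compared in level is not known. The totals implied by the values, explained with the processing steps, were 14508997 to 19641543 reads per library. At the median listed length of the long models, 1 FPKM corresponded to 23.1 to 31.3 reads.

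Overlap between models moved with detection and is given first. Of the long models, 2099 overlapped no other model, 1563 were partly overlapped and 147 lay wholly inside another model on the opposite strand. The partly overlapped group includes long models that enclose another model, and these make up most of it. Its values therefore do not describe partial overlap alone. No overlap with a long model was on the same strand, and none was with a model added by the authors. Of the 147 enclosed long models, 145 were listed at 0 in all 6 libraries, which is 98.6%. The same was true of 138 (6.57%) of those that overlapped nothing and 102 (6.53%) of those partly overlapped. Enclosed short models were listed at 0 in all libraries in 65.8% of 1502 cases, against 20.9% of the 16904 short models without overlap. A 0 in an enclosed model is therefore reported only as a listed value.

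**Figure D1:**
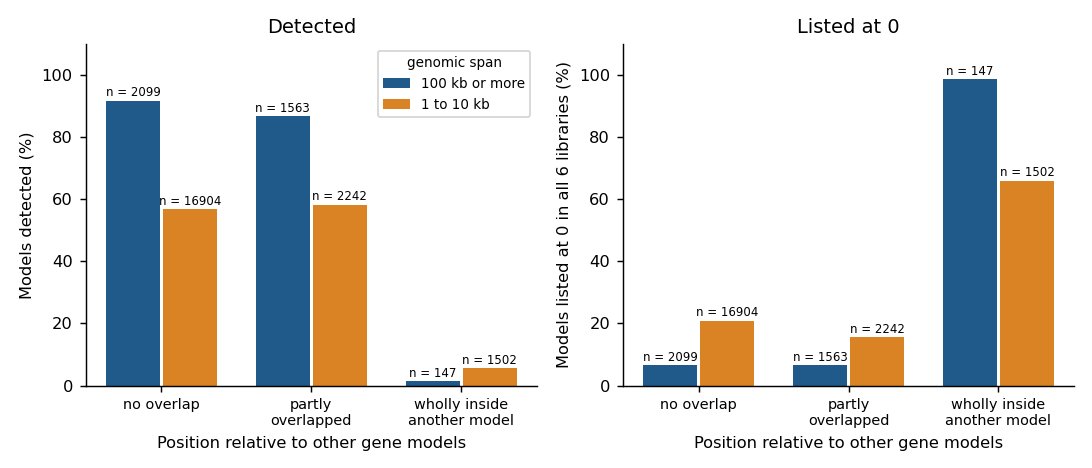
Percent of long models (span 100 kb or more, blue) and short models (span 1 to 10 kb, orange) that were detected, meaning at least 1 FPKM in at least 2 libraries (left), and that were listed at 0 in all 6 libraries (right), by position relative to other models. Models wholly inside another stand apart, with 1.36% of 147 long and 5.59% of 1502 short models detected. Partly overlapped long models include those that enclose another model.

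Long models also overlapped each other in 196 pairs, always on opposite strands, and both partners were detected in 9 of these pairs. Of the 147 pairs with one model wholly inside the other, 0 had both detected, 101 had 1 detected and 46 had neither. The 2 enclosed models with reads, singled out after their values were seen, lay inside models that were themselves almost empty. The first was on the plus strand of scaffold 2305 (434132 to 689595), listed at 29.1 and 24.8 FPKM in September, 37.2 and 38.5 in November and 35.0 and 33.1 in February, and its host was at 0 in every library. The other was on the minus strand of scaffold 396 (2151813 to 2354993), at 58.7 and 61.9 FPKM in September, 106.0 and 154.8 in November and 215.3 and 176.8 in February. Its host was the model of largest span in the annotation. How the authors' counting treated reads on overlapping models, and whether it used strand, was not stated in any source at hand, and its part in these values was not tested.

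In all, 1409 long models (37.0%) enclosed at least 1 other model, up to 8 of them, with 1786 enclosed models together. The enclosed models had a median span of 1093 bases, and 79 of them (4.42%) were detected. The enclosing long models were detected in 90.1% of cases, with a median level of 12.7 FPKM. In 1671 of the 1786 pairs the host had the higher mean FPKM, and in 64 the enclosed model did. Across these pairs, which share a locus and the same libraries, Spearman's rho of mean FPKM was 0.036, given as a description.

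Most long models were expressed in the embryos. At least 1 FPKM in at least 2 libraries was reached by 3282 of 3809 (86.2%), against 53.2% of the short models and 52.5% of all models. In single libraries 84.5% to 85.3% of long models and 45.6% to 49.0% of short models reached 1 FPKM. Among models that overlapped no other, the shares were 91.7% and 56.8%. In these bulk libraries, fewer cells of a type and less RNA per cell cannot be told apart. Of the 527 long models below the limit, 385 were listed at 0 in every library.

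The median level of long models was 12.9 and 13.9 FPKM in the September libraries, 13.3 and 11.6 in November and 13.2 and 12.3 in February. Short models had medians of 0.79 and 0.869, 0.868 and 0.72, and 0.587 and 0.601 FPKM in the same libraries. The long class was higher in 6 of 6 libraries. Detected models alone stood closer together, with class medians of 17.0 FPKM for long and 8.10 FPKM for short models by mean over the 6 libraries. Long models were concentrated at moderate levels. A mean of 5 to 50 FPKM was found in 2369 of them (62.2%), compared with 24.9% of short models. The share was 43.9% in models of 10 to 50 kb and 52.2% in those of 50 to 100 kb. These shares are over all models of a class, detected or not.

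Restricting both classes to listed lengths of 1080 to 2409 bases, the quartiles of the long class, left 1905 long and 9824 short models. On the log2(FPKM + 1) scale the long median exceeded the short median by 3.06 and 3.09 in the September libraries, 3.01 and 2.98 in November and 3.14 and 3.09 in February. Taking detected models only, the excess was 1.09 to 1.25 in the 6 libraries. Detection was 88.0% of the long and 53.9% of the short models in this range. The gap in detection was present in every band of listed length. It was smallest up to 500 bases, where 61.8% of 131 long and 55.1% of 1689 short models were detected, and largest between 1000 and 1500 bases, at 88.6% and 49.0%. No test of these class differences was made, since gene models are not replicates.

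**Figure D2:**
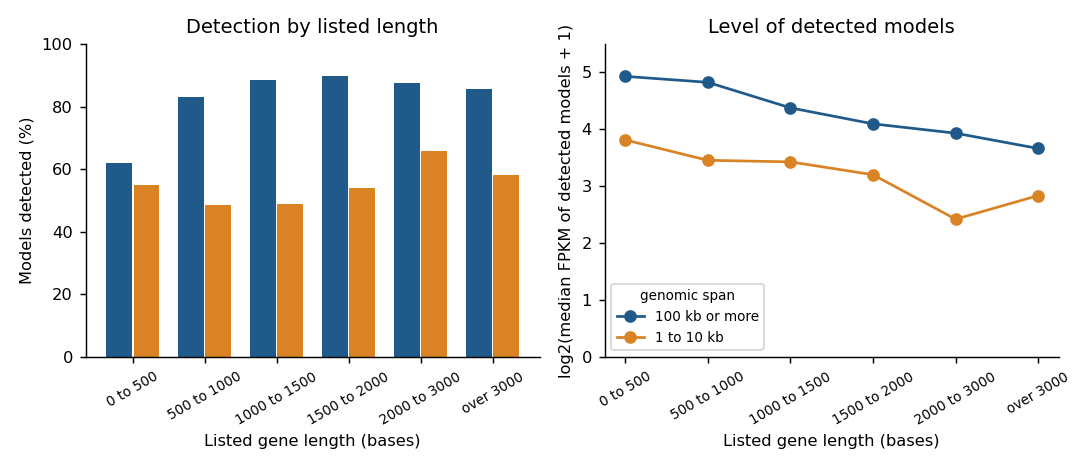
Left, percent of models detected by band of listed gene length for long (blue) and short (orange) models. Right, log2(median FPKM + 1) of the detected models, from means over 6 libraries; long models lie higher in each band, from 29.5 against 13.1 FPKM up to 500 bases to 11.7 against 6.14 FPKM above 3000 bases.

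The highest expression levels in the embryo were not found among long models. None of the 3809 had a mean of 1000 FPKM or more, while 70 of 20648 short models did, and the largest means were 878.1 and 5980 FPKM. A mean of 100 FPKM or more was found in 3.70% of long, 3.95% of short and 4.17% of all models. The long share was the higher in each band of listed length up to 1500 bases, as with 8.10% and 4.75% at 500 to 1000 bases. In each band above 1500 bases it was the lower. At spans of 10 to 50 kb and 50 to 100 kb the shares were 10.7% and 8.01%. At similar listed length, 0 of 1905 long and 14 of 9824 short models had a mean of 1000 FPKM or more. Long models were 3809 of the 43690 models ranked by mean FPKM. Among the 100 most abundant models, 0 were long and 61 short, and the top 1000 held 43 long models. Further down the ranking their share grew, to 15.8% of the top 5000 and 18.8% of the top 10000. The 99th percentile over single libraries was 184.4 to 201.3 FPKM for long and 354.1 to 439.5 FPKM for short models.

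The 3 most abundant long models were named by mean FPKM. The first, on the plus strand of scaffold 1478 (877840 to 1145166), had a listed length of 465 bases and overlapped 1 other model. It was at 368.2 and 236.0 FPKM in September, 747.2 and 2198 in November and 589.9 and 1129 in February, so that the November libraries were far apart. From September into November it changed by 2.12 (log2; SE 0.56, limma adjusted p = 0.033). The call was lost without September 1 or 2, November 2, or February 1 or 2. It was also lost with no filter on low values (limma adjusted p = 0.063) and with only the 2 months compared (0.054). Its 10 alternatives with no single library left out gave a limma adjusted p of 0.028 to 0.063. The change was 2.89 without November 1 and 1.34 without November 2. The next, on the minus strand of scaffold 3190 (1122136 to 1310869), was at 198.4 and 208.7 FPKM in September, 212.4 and 334.6 in November and 1175 and 1027 in February. It rose from November to February by 2.04 (SE 0.25, limma adjusted p = 0.0026), and both February libraries lay above all others. The last, on the minus strand of scaffold 498 (92249 to 215904), stood at 626.5 and 589.4 FPKM in September, 514.8 and 387.9 in November and 270.7 and 335.5 in February. It fell by 1.01 from September to February (SE 0.22, limma adjusted p = 0.0079), a call lost without September 1 (adjusted p = 0.062).

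**Figure D3:**
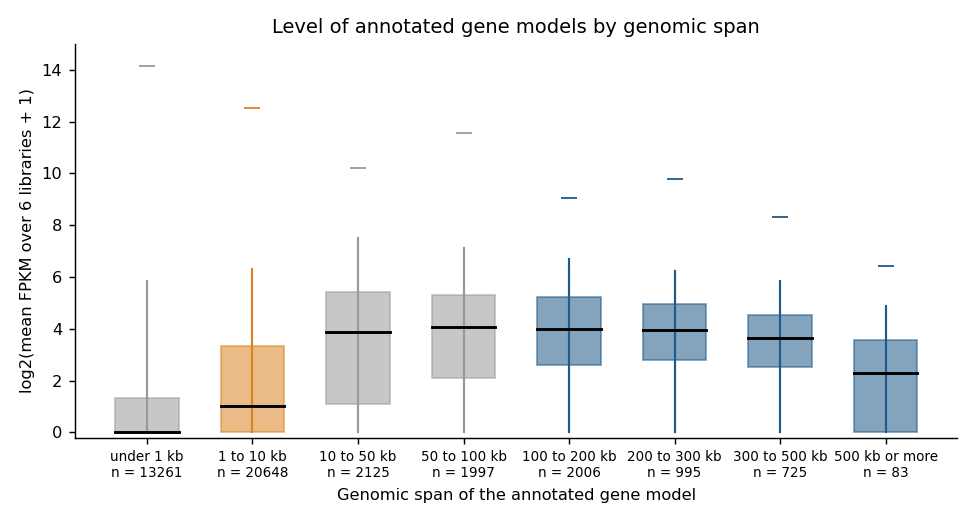
Distribution of log2(mean FPKM + 1) over annotated models by genomic span; boxes run from the first to the third quartile, black lines are medians, vertical lines run from the 5th to the 95th percentile and dashes mark the highest model. Medians reach 13.7 FPKM at 10 to 50 kb and 15.8 FPKM at 50 to 100 kb, and within the long models (blue) they go from 14.99 FPKM at 100 to 200 kb to 3.86 FPKM at 500 kb or more.

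Within the class, level did not increase with span. The median of mean FPKM was 14.99 for 2006 models of 100 to 200 kb, 14.6 for 995 models of 200 to 300 kb, 11.4 for 725 models of 300 to 500 kb and 3.86 for 83 models of 500 kb or more. Detection was 86.6%, 87.4% and 86.3% in the first 3 of these groups and 57.8% in the last. Over the same groups the median listed length rose from 1419 to 2679 bases. Whether reads from introns entered the authors' counts was not stated, and their part in these levels was not tested. Models of 10 to 50 kb and of 50 to 100 kb, below the threshold, had medians of 13.7 and 15.8 FPKM and detection of 77.2% and 81.3%. The medians thus stepped up between 1 to 10 kb and 10 to 50 kb, with no such step at 100 kb.

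The 5 models of largest span held almost no reads. The longest lay on the plus strand of scaffold 396 (1600512 to 2989572, 1389.1 kb) and had 1 recovered read over all 6 libraries, in November 1. The next 3, on scaffold 7497 (744092 to 1796761), scaffold 12488 (306288 to 1305506) and scaffold 348 (1221237 to 2202657), spanned 1052.7, 999.2 and 981.4 kb and were listed at 0 throughout. The fifth, on scaffold 392 (320335 to 1287196, 966.9 kb), had 1 read, in September 2. In order of span these 5 models overlapped 3, 0, 0, 2 and 1 other models, and the part of overlap in their values was not tested. At the other end, the shortest members were expressed at ordinary levels. One on the minus strand of scaffold 6375 (174128 to 274147, 100.02 kb) was at 4.92 to 16.6 FPKM over the libraries, and one on scaffold 2410 (108552 to 208586, 100.04 kb) was at 81.1 to 130.3 FPKM. Just below the threshold, a model on scaffold 61021 (20806 to 120784, 99.98 kb) was at 37.0 to 106.3 FPKM and one on scaffold 1246 (43647 to 143597, 99.95 kb) at 13.2 to 43.0 FPKM.

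Long models held 9.05% and 9.81% of summed FPKM in the September libraries, 8.98% and 8.25% in November and 10.8% and 9.43% in February. The February mean exceeded the November mean by 1.51 percentage points, with months that did not overlap (exact two-sided permutation test, p = 0.333, n = 2 per month, adjusted p = 0.5 over 3 comparisons). With 2 libraries against 2 this test cannot give less than 0.333. For November against September the difference was −0.819 points, again without overlap (exact permutation p = 0.333). For February against September it was 0.69 points (exact permutation p = 0.667). Without the most abundant 1% of genes, the February excess over November was 0.587 points (exact permutation p = 0.667), and these months overlapped. Counted as recovered reads, which are not scaled by length, the long models held 13.9% ± 0.949 in November, 15.1% ± 0.857 in September and 16.1% ± 1.39 in February (SD, n = 2). By recovered reads, and also without the most abundant 1% of genes, November and September overlapped (exact permutation p = 0.667 for each).

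Changes between months were tested on the log2(FPKM + 1) scale with limma over the 22947 models of any kind that reached the detection limit given above. A model was called when its Benjamini-Hochberg adjusted p was under 0.05. The 3282 detected long models entered this test and 527 did not. Calls of at least 4-fold made up a smaller share of the long than of the short models tested in all 3 comparisons, and the share called at any size was below that over all genes tested. Shares of large changes below that of short models were also found at spans between 10 and 100 kb. Models of 50 to 100 kb were called with at least a 4-fold change in 0.985%, 1.48% and 8.44% of 1624 tested for November against September, February against November and February against September. Those of 10 to 50 kb were so called in 1.83%, 2.38% and 9.81% of 1641 tested.

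Between September and November, 309 long models rose and 460 fell. These 769 calls were 23.4% of the long models tested, against 30.5% of all genes tested and 30.9% of short models. Rises made up 9.41% and falls 14.0% of the long models tested, with 14.6% and 15.9% over all genes. Only 29 long models (0.884%) were called with a change of at least 4-fold, against 5.39% of all genes and 5.89% of short models. The median absolute log2 change was 0.39 for long and 0.50 for short models tested, but with no filter on low values it was 0.38 and 0.34, and the long median was the higher in the other 2 comparisons too. The count depended on single libraries, with 129 calls without September 1 (68 rises, 61 falls) and 101 without September 2 (57 and 44), fits in which the remaining September library is assumed to vary like the other months.

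The 3 largest rises named here were taken among called models whose months did not overlap, a limit that applies to every rise and fall named below. Gb_35669, on the plus strand of scaffold 7257 (313739 to 449279), was at 2.58 and 2.16 FPKM in September, 25.7 and 22.8 in November and 5.52 and 6.08 in February. It rose by 2.91 (SE 0.20, limma adjusted p = 0.00098) and fell again by 1.89 into February (SE 0.20, limma adjusted p = 0.0018). A model on the minus strand of scaffold 4071 (682997 to 809912) was at 56.2 and 34.5 FPKM in September, 230.1 and 301.7 in November and 352.7 and 525.1 in February. Its rise into November was 2.55 (SE 0.31, limma adjusted p = 0.003), and it overlapped 1 other model. A model of 340.8 kb on the plus strand of scaffold 5283 (1977439 to 2318218), overlapping 2 others, went from 5.76 and 3.62 FPKM to 24.9 and 31.6 FPKM. It rose by 2.38 (SE 0.28, limma adjusted p = 0.0029), and its February libraries stood at 25.9 and 17.9 FPKM. Where models overlap on opposite strands, reads of the partners cannot be told apart without strand.

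Of the 3 largest falls, 2 rested on November libraries that were far apart. A model on the plus strand of scaffold 9407 (779829 to 1107863) was at 21.3 and 24.3 FPKM in September, at 0.0825 and 6.62 in November and at 1.05 and 1.23 in February. It fell by 3.05 (SE 0.80, limma adjusted p = 0.032), a call lost without September 1 or 2 (adjusted p = 0.14 and 0.16), February 1 or 2 (0.072 for both), with a pseudocount of 0.1 (0.071), with no filter on low values (0.062) and with only the 2 months compared (0.072). Its 10 alternatives with no single library left out gave a limma adjusted p of 0.021 to 0.072. The change was −1.64 without November 1 and −4.46 without November 2. A model on the minus strand of scaffold 13976 (63934 to 212848) was at 15.8 and 20.5 FPKM in September, 6.53 and 0.298 in November and 0.0956 and 0.0186 in February. It fell by 2.61 (SE 0.73, limma adjusted p = 0.039), and the call was lost without September 1 or 2 (adjusted p = 0.15 and 0.19) or February 1 or 2 (0.083 for both), and in 4 of its 10 other alternatives (0.034 to 0.083 over all 10). Without November 1 or 2 the change was −3.87 or −1.34. The remaining model, on the minus strand of scaffold 287 (31816 to 175682), had close libraries, at 14.8 and 17.7 FPKM in September, 1.35 and 1.57 in November and 1.68 and 1.36 in February. Its fall was 2.81 (SE 0.22, limma adjusted p = 0.0012).

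Between November and February, 664 long models rose and 609 fell. The 1273 calls were 38.8% of the long models tested, where 41.2% of all genes and 42.0% of short models were called. Rises were 20.2% and falls 18.6% of the long models tested, against 18.6% and 22.6% over all genes. Changes of at least 4-fold were called for 43 long models (1.31%), with 5.27% of all genes and 5.32% of short models. Among long models of similar listed length, 316 rose and 362 fell, an excess of falls. Models of 10 to 50 kb showed 365 rises and 319 falls. With RLE factors 811 long models rose and 519 fell. Without February 1 the count was 398. The excess of rises turned into an excess of falls without November 2 (548 rises, 648 falls) or February 1 (184 and 214).

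In this interval Gb_40722, on the plus strand of scaffold 9365 (4395521 to 4544143), rose at both steps. It was at 0.302 and 0.198 FPKM in September, 4.001 and 4.39 in November and 37.7 and 39.97 in February. The November to February rise was 2.94 (SE 0.20, limma adjusted p = 0.00082), and it overlapped 1 other model. The largest rise belonged to a model of 534.7 kb with a listed length of 10191 bases, on scaffold 7370 (212264 to 746932, minus strand). It overlapped 2 other models. It was at 0.642 and 0.543 FPKM in September, 1.41 and 2.28 in November and 36.3 and 18.4 in February, a rise of 3.26 from November (SE 0.35, limma adjusted p = 0.0019). A model of 461.7 kb on the minus strand of scaffold 131 (316765 to 778470) went from 6.31 and 4.37 FPKM in November to 62.5 and 29.0 in February. Its rise was 2.80 (SE 0.38, limma adjusted p = 0.0033), after 4.33 and 5.94 FPKM in September, and it overlapped 1 other model.

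Gb_26632, on the minus strand of scaffold 4583 (456424 to 567071), fell most from November to February. It was at 40.7 and 46.4 FPKM in September, 20.4 and 4.52 in November and 0.202 and 0.261 in February. The fall was −3.14 (SE 0.57, limma adjusted p = 0.0074), and the call was lost without February 1 (adjusted p = 0.059). Its size depended on the November libraries, at −2.16 without November 1 and −4.12 without November 2. Without November 1 it was smaller than the changes of the other two models named here, −2.59 and −2.54. Another, on scaffold 9491 (1138243 to 1269981, minus strand), held its level until November, at 17.7 and 16.5 and then 17.6 and 14.6 FPKM. It was at 0.814 and 2.71 FPKM in February, a fall of −2.71 (SE 0.35, limma adjusted p = 0.0028), and it overlapped 1 other model. The model at 677833 to 787260 of scaffold 5366, minus strand, did likewise, with 108.2 and 110.6 FPKM in September, 133.7 and 113.5 in November and 13.5 and 25.9 in February. It fell by 2.65 (SE 0.29, limma adjusted p = 0.0019).

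September and February, the months farthest apart, shared libraries with both comparisons above and gave the most calls. Of the long models 850 rose and 1002 fell, 1852 in all and 56.4% of those tested, with 61% of all genes and 62.9% of short models called. Rises were 25.9% and falls 30.5% of the long models tested, against 27.1% and 33.9% over all genes. Changes of at least 4-fold were called for 206 long models (6.28%), compared with 14.5% of all genes and 15.7% of short models. Without September 1, September 2 or February 1 the count was 1176, 1190 or 1229. The excess of falls depended on scaling, since median-of-ratios (RLE) factors gave 997 rises and 851 falls. Those factors moved the median change of all tested genes by 0.13. Relative to the median of all genes, the median long model was 0.06 higher with FPKM as deposited and 0.07 higher with RLE factors. That difference was 0.0035 with a filter of 5 FPKM and 0.0094 without February 1, and it turned to −0.023 with no filter on low values. Among long models of similar listed length the median change was −0.166, below the −0.132 of all genes tested. Models of 10 to 50 kb had a median change of 0.027.

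Gb_40722 had the largest rise over this interval, a log2 change of 4.99 (SE 0.20, limma adjusted p = 9.2e-05), and the model on scaffold 7370 the next, 4.08 (SE 0.35, limma adjusted p = 0.00029). Scaffold 14305 held a minus-strand model (136735 to 268793) that was listed at 0 and 0.146 FPKM in September, 2.37 and 3.27 in November and 11.1 and 20.5 in February. It rose by 3.91 (SE 0.32, limma adjusted p = 0.00026). Gb_26632 fell farthest, by 5.17 (SE 0.57, limma adjusted p = 0.00061). On scaffold 1158, a minus-strand model (203499 to 335082) went from 40.4 and 49.6 FPKM in September, through 20.2 and 1.996 in November, to 1.11 and 0.927 in February, a fall of −4.50 (SE 0.81, limma adjusted p = 0.0035). Gb_26038, on the minus strand of scaffold 4461 (172303 to 421295), was at 76.7 and 85.8 FPKM in September, 20.5 and 19.6 in November and 2.14 and 4.25 in February. It fell by 4.34 (SE 0.26, limma adjusted p = 0.00014), and no library of one month overlapped those of another.

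**Figure D4:**
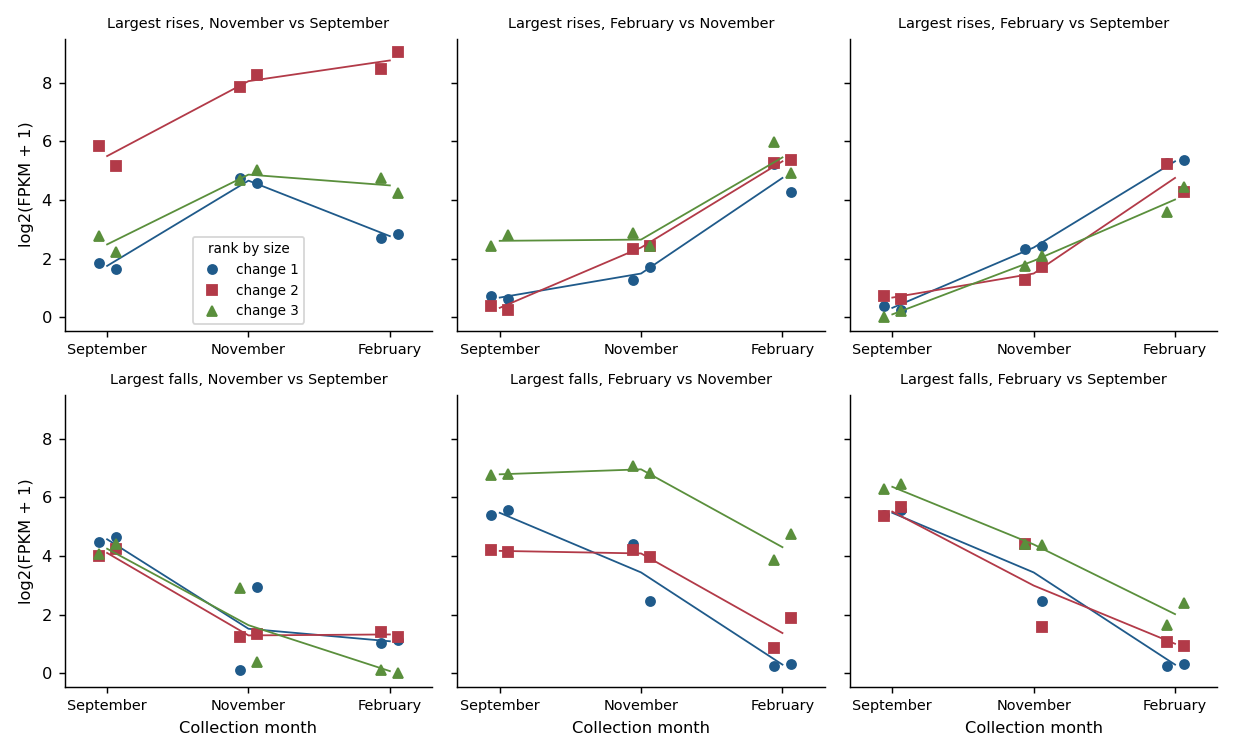
Level of the 3 long models with the largest called rises (top) and falls (bottom) in each comparison, as log2(FPKM + 1) by collection month; each point is 1 library, lines join month means, and colours and symbols give the rank by size of change within a panel. The top right panel holds the rise of 4.99 of Gb_40722 and the bottom right panel the fall of 5.17 of Gb_26632, whose November libraries were apart at 20.4 and 4.52 FPKM.

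The most even long models with a mean of at least 20 FPKM showed almost no difference between months. A model of 432.4 kb on the minus strand of scaffold 2509 (2503053 to 2935490) was at 22.4 and 27.2 FPKM in September, 25.4 and 23.9 in November and 25.1 and 24.6 in February. Its month means had a range of 0.012 on the log2 scale. Models on scaffold 19210 (29013 to 210292) and scaffold 10881 (210441 to 351104) had ranges of 0.025 and 0.027, at 23.1 to 26.2 and 62.6 to 80.6 FPKM, the latter overlapping 1 other model. They were chosen for this evenness, so it is a description.

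In at least 1 of the 3 comparisons, 2176 long models (66.3% of those tested) were called, against 71% of all genes and 72.3% of short models. Level was set beside these shares, since the 2 classes differ in level. Within each of 5 bands of mean FPKM the share of tested models called with at least a 4-fold change was lower in long models, in all 3 comparisons. At 5 to 20 FPKM it was 1.19% of 1430 long and 6.94% of 3444 short models for November against September. The shares were 1.40% and 6.68% for February against November, and 6.64% and 19.2% for February against September. The share called at any size was also lower in long models in each band, with the exception of 100 FPKM or more for February against September, where 73.8% of 141 long and 71.6% of 816 short models were called. The standard error was similar, with medians of 0.224 for long and 0.240 for short models at 5 to 20 FPKM. The fit draws each model's variance toward a common trend with level, so this likeness is partly built in.

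**Figure D5:**
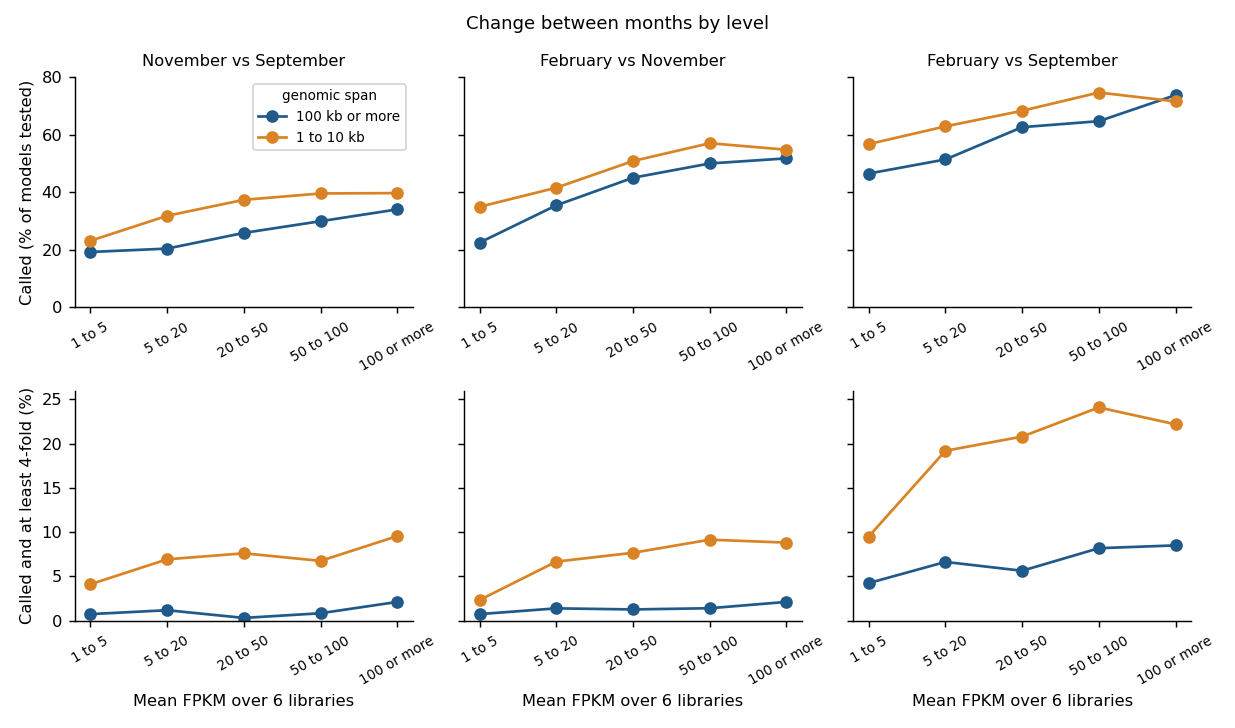
Percent of tested long (blue) and short (orange) models that were called (top, limma adjusted p under 0.05) and called with at least a 4-fold change (bottom), by band of mean FPKM over 6 libraries, for the 3 comparisons. Long models lie below short ones in each lower panel, as at 5 to 20 FPKM with 6.64% against 19.2% for February against September.

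Large changes were also less frequent over every model of each class, with no filter on level. The month means differed by at least 4-fold on the log2(FPKM + 1) scale in 25 of 3809 long models (0.656%) and 3.12% of short models for November against September. The shares were 1.23% and 3.33% for February against November, and 5.38% and 8.48% for February against September. This did not extend to smaller differences. At least a 2-fold difference was found in 9.79% of long and 12.9% of short models, then in 16.0% and 16.1%, and in 28.98% and 25.04% for February against September, where the long share was the higher.

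Replicate libraries of a month were as close for long models as for short ones or closer. At a mean of 5 to 50 FPKM the median absolute log2 difference between the 2 libraries was 0.175 for long and 0.200 for short models in September. It was 0.262 and 0.301 in November, and 0.213 and 0.229 in February. The 90th percentiles were 0.430 and 0.539 in September, 0.658 and 0.958 in November and 0.522 and 0.604 in February. The November libraries were the farthest apart in both classes. Among long models that overlapped no other, the shares called were 24.6%, 40.9% and 57.0% of 1925 tested in the 3 comparisons, in the order given above. Changes of at least 4-fold were 0.883%, 1.51% and 6.86%, against 5.998%, 5.27% and 15.8% of the 9603 short models tested without overlap.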

How the data were processed

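The members and comparison classes were chosen with earlier results of these data known. The deposited mRNA table gives FPKM per gene model and library, with scaffold, strand, start, end and listed length, per the file headers. Per the submitters' processing notes, Bowtie, TopHat2 2.0.12, HTSeq 0.6.1 and CASAVA 1.8 were used; their roles are unstated. The genome build, the annotation version, strand use and the handling of introns and overlaps were not given in the sources used here. Coordinates come from this table. The listed length was a multiple of 3 in 78.0% of long and 87.4% of short models. The small-RNA table was not used here.

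FPKM times listed length was a whole multiple of 1 step per library, within 0.05 of a read, for 100% of values of annotated models, and dividing by the step gave recovered reads. Log2(FPKM + 1) of the 6 libraries was modelled by month in limma 3.58.1 (R 4.3.3) using trended variances, leaving 3 residual degrees of freedom. This scale understates the change of low genes. The method was run on simulated data with a common spread setting for all genes and few changed genes. The real libraries had uneven spread and many called genes, so that run does not show how reliable the calls are here. Groups were the collection months.

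Long models were named by rule. These were the 5 of largest span, the 3 most abundant, the 3 largest rises and falls per comparison (called, months not overlapping, at least 5 FPKM in the higher month), the 2 nearest the threshold on each side, and the 3 steadiest with at least 20 FPKM. Positions stand in for gene names, and identifiers are printed for 4 models. Similar listed length means the quartile range of the long models. Bands of mean FPKM and models without overlap were chosen after seeing the data. Alternatives covered pseudocounts, filters, scaling, limma-voom on recovered reads, a replicate block, left-out libraries and span thresholds.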

Additional observations from a re-analysis of the deposited data

How the results depend on the processing

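The share of models called with at least a 4-fold change was lower in long than in short models in all 51 combinations of 17 settings and 3 comparisons. The share called at any size was lower in 49; with no filter on low values it was higher in long models for February against November (32.3% and 27.2%) and February against September (51.3% and 45.7%). The median absolute change was lower in long models in 48, the exceptions being the 3 comparisons with no filter. Counts of called long models ran from 101 to 779 (November against September), 398 to 1196 (February against November) and 1176 to 1990 (February against September) with a library left out, where a lone library of a month is assumed to vary like the others. Counts also moved because the number of models did: with a span of at least 50 kb they were 1169, 1944 and 2805, with at least 200 kb 343, 571 and 856, and among models overlapping no other 474, 787 and 1098. With RLE factors the median change moved from 0.05 to 0.15 (February against November) and from −0.07 to 0.067 (February against September); the cause was not tested. The median level of 3.79 on the log2 scale became 3.70 with a pseudocount of 0.1, 4.09 with detected models only, 3.67 at 200 kb and 4.07 without overlap. The excess over short models of similar listed length, 3.06, was 4.02 with a pseudocount of 0.1, 1.18 with detected models only, 3.27 at 50 kb, 2.80 at 200 kb and 2.998 with all lengths. Detection of 86.2% was 89.9% for any value above 0, 78.9% at 5 FPKM, 84.5% at 50 kb and 91.7% without overlap. The share of summed FPKM, 9.39% on average, was 15.03% of recovered reads, 14.98% without the most abundant 1% of genes, 16.5% at 50 kb, 3.64% at 200 kb and 6.01% without overlap. With a replicate block the counts of calls were 540, 1033 and 1642, and the 24 calls of named models followed through the alternatives were kept; deviations of same-numbered libraries were correlated at −0.086, 0.098 and −0.175 between months, so the numbers were not taken to pair the libraries. Across all alternatives those calls gave 384 further results, of which 24 lost the call and 0 changed direction. Most of those calls were chosen as the largest changes with months not overlapping. Leaving out a library or changing the pseudocount or filter could not reverse such a change, so the kept direction is a description only.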

Other observations

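Among models added by the authors, which carry no identifier of the annotation, 145 spanned 100 kb or more. Their median span was 158.2 kb and their median listed length 1010 bases. Of these, 138 (95.2%) were detected and 0 were listed at 0 in all libraries, and their median level was 8.50 FPKM by mean over 6 libraries. Their highest member reached a mean of 962.2 FPKM, above the 878.1 FPKM of the highest annotated long model. That member was at 1951 and 319.4 FPKM in September, 1586 and 1292 in November and 152.9 and 472.4 in February. Its libraries of September and of February were thus far apart.

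In the annotation as a whole, 4097 annotated models lay wholly inside another model. Of these, 203 (4.95%) were detected and 3100 (75.7%) were listed at 0 in all 6 libraries, compared with 27.1% of the 32290 annotated models that overlapped nothing.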
